A study of Homo sapiens with 6 samples.

Results

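The genes described here are 40 human genes whose products copy DNA or supply the deoxynucleotides for it. They were chosen by function, as a named set, with earlier results of these data known. All 40 had a probe set paired with exactly 1 gene symbol, among 18417 such genes on the array. For UHRF1, the member with more than 1 such probe set, the brighter one by its mean over the 6 arrays was kept. Transcripts were measured in HCT116 cells, a human line established from a colorectal carcinoma, 48 h after they were transiently transfected with double-stranded RNA oligos. Cells labelled siChe-1 (3 arrays) received oligos directed at Che-1, whose gene is AATF, and cells labelled control (3 arrays) received siGFP, which has no target gene in an unmodified human cell. Both groups shared the line, the medium with 10% serum and the transfection itself. The comparison asks what loss of Che-1 does to transcript levels. The labels neither give the oligo sequences nor call the arrays of a group separate cultures. The p-values therefore cover array-to-array spread, which may be technical, and 3 arrays a group limit the precision.

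DNA replication starts when the origin recognition complex, CDC6 and CDT1 load rings of the MCM2 to MCM7 helicase onto DNA in G1. In S phase CDC45 and the GINS complex join each ring and turn it into an active helicase. Primase with DNA polymerase alpha then lays down primers, the clamp loader places the PCNA ring, and polymerases delta and epsilon extend the strands. Many of these genes are transcribed at the G1 to S transition under E2F transcription factors, so their summed transcript level tracks the share of cultured cells that are cycling. In RNA from a whole culture, fewer cells in S phase and less transcript per cell cannot be told apart.

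AATF, the gene targeted, did not follow its label. It read 8.53, 8.81 and 8.87 in the arrays labelled siChe-1, against 7.55, 7.75 and 7.55 in those labelled control (log2 RMA intensity, a background-corrected and normalised brightness summarised over the probes of a gene). The difference was 1.12 ± 0.13 (SE), with limma adjusted p = 0.00122 and an exact two-sided permutation p = 0.1, the smallest that 3 arrays against 3 allow. Every direction below is therefore that of the labels, and all of them would turn if the group labels were exchanged. The array labelled siChe-1 replicate 1 also stood apart: over all genes its median absolute deviation from the mean of the other 2 arrays of its group was 0.229, against 0.116 to 0.163 for the other 5 arrays. Array medians over 33297 probe sets were 5.04, 5.03 and 5.05 in the arrays labelled siChe-1, and 4.996, 4.95 and 4.98 in those labelled control. The line's epithelial markers EPCAM, KRT8 and KRT18 read between 9.93 and 12.6 on every array, whereas VIL1 read at most 3.76. The 9 measured leukocyte markers spanned 2.28 (PTPRC) to 8.39 (CD68), and the 10 stromal and endothelial markers 2.14 (LUM) to 7.48 (COL1A1). Of those 10 stromal and endothelial markers 0 were called by limma, with 1 lower and 1 higher at an unadjusted p under 0.05. At that p 3 of 10 epithelial markers were lower and 3 higher, and 1 of 9 leukocyte markers lower and 1 higher. Of all genes 9.77% were lower and 7.88% higher. Of the leukocyte markers 1, CD68, was called lower in the arrays labelled siChe-1, as was 1 of 10 epithelial markers, KRT19, and 1 epithelial marker, ELF3, was called higher. These markers were named after their values were seen. Their part in the results below was not tested.

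With all 6 arrays, 2 replication genes were called lower in the arrays labelled siChe-1, and neither call held when any 1 control array was left out. GINS3, a subunit of the helicase-activating GINS complex, was 1.59-fold lower in the arrays labelled siChe-1, and POLA2, the B subunit of DNA polymerase alpha, was 1.41-fold lower. These 2 of 40 members (5%) were the ones called lower by limma at a Benjamini-Hochberg adjusted p under 0.05 over all 18417 genes, where 2.52% of all genes were called lower. The other 38 are not shown to be equal between the groups. By limma 0 of 40 members were called higher, where 1.19% of all genes were. At an unadjusted p under 0.05, 1 member was higher, where 7.88% of all genes were. The median difference over the 40 members was -0.16 on the log2 scale, against 0.0051 over all genes, and 33 of the 40 had a difference below 0, against 49.1% of all genes. At the same unadjusted p, 14 members were lower, where 9.77% of all genes were. The precision was enough to bound most members. For 39 of 40 the 95% confidence interval lay within a 2-fold change in either direction, and 96.5% of all genes met that bound. The member outside it was GINS3, whose interval reached just past 2-fold lower. The count of calls depended on the fit. Without siChe-1 replicate 2 it was 1 member lower (1.88% of all genes), and without siChe-1 replicate 3 it was 0 (1.36%). It was also 0 without control replicate 1 (1.14%), 2 (1.22%) or 3 (1.08%). When 1 of these 4 arrays was left out, 9 to 11 members were lower at an unadjusted p under 0.05 by limma. Of all 18417 genes, 1401 to 1558 were. With a repeated quantile normalization the count of calls was 1 (2.11%). There the median over the members was -0.086 with 26 below 0 and 14 above, where 8551 of all 18417 genes were below 0. The count was 1 with an intensity trend and robust prior (2.3%). It was 4 with each array centred on its median (3.13%), 4 without the dimmest 40% of genes (4.54%) and 11 with array weights (8.24%).

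**Figure D1:**
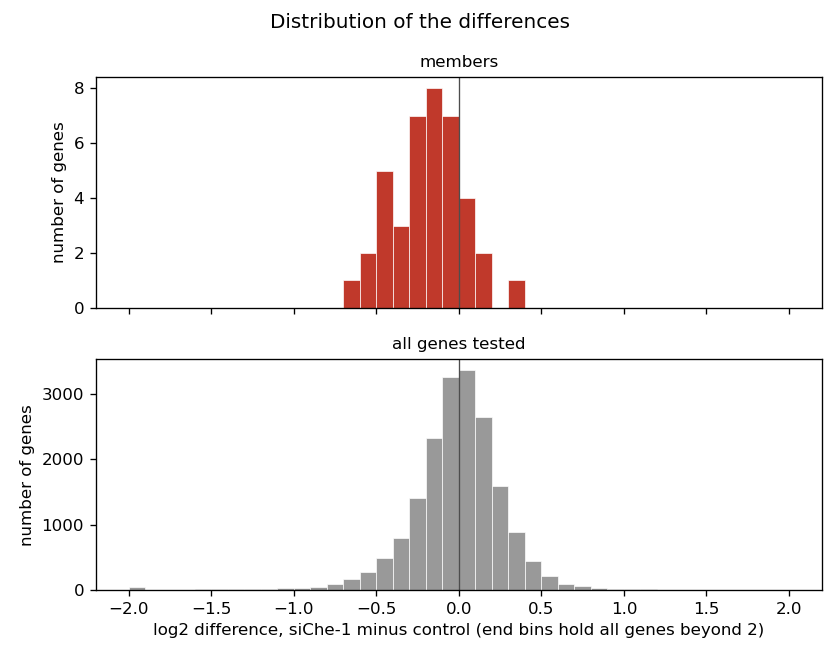
The horizontal axis is the log2 difference, siChe-1 minus control, in bins of 0.1, and the vertical axis the number of genes, for the 40 members (upper panel) and all 18417 genes (lower panel). The members lie between -0.67 and 0.32 with a median of -0.16, and the bulk of all genes is centred near 0.

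The array labelled siChe-1 replicate 1 bore on many members. Its median absolute deviation from the mean of the other 2 arrays of its group was 0.213 over members and 0.229 over all genes. The array held the lowest of the 6 values for 22 members and the highest for 6, which was not counted over all genes. For 7 members (MCM3, GINS4, RFC3, POLA1, POLE, CCNE2 and RRM1) it lay over 0.5 below the mean of siChe-1 replicates 2 and 3, and for 3 (CDT1, GINS2 and SLBP) over 0.5 above it. Without that array 5 members were called lower (12.5%), where 4.48% of all genes were. By limma 0 were called higher, where 4.01% of all genes were. At an unadjusted p under 0.05 in limma, 3 members were higher, where 2138 of all 18417 genes were. At the same p 16 members were lower, where 2102 of all genes were. The 5 called lower were GINS3, POLA2, ORC1, CDT1 and CCNE1, so both earlier calls were kept. The median over the members was -0.17 without the array. The number of members below 0 was 28, against 51.1% of all genes, since RFC2, RFC3, POLA1, POLE and CCNE2 then had differences between 0.049 and 0.18.

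**Figure D2:**
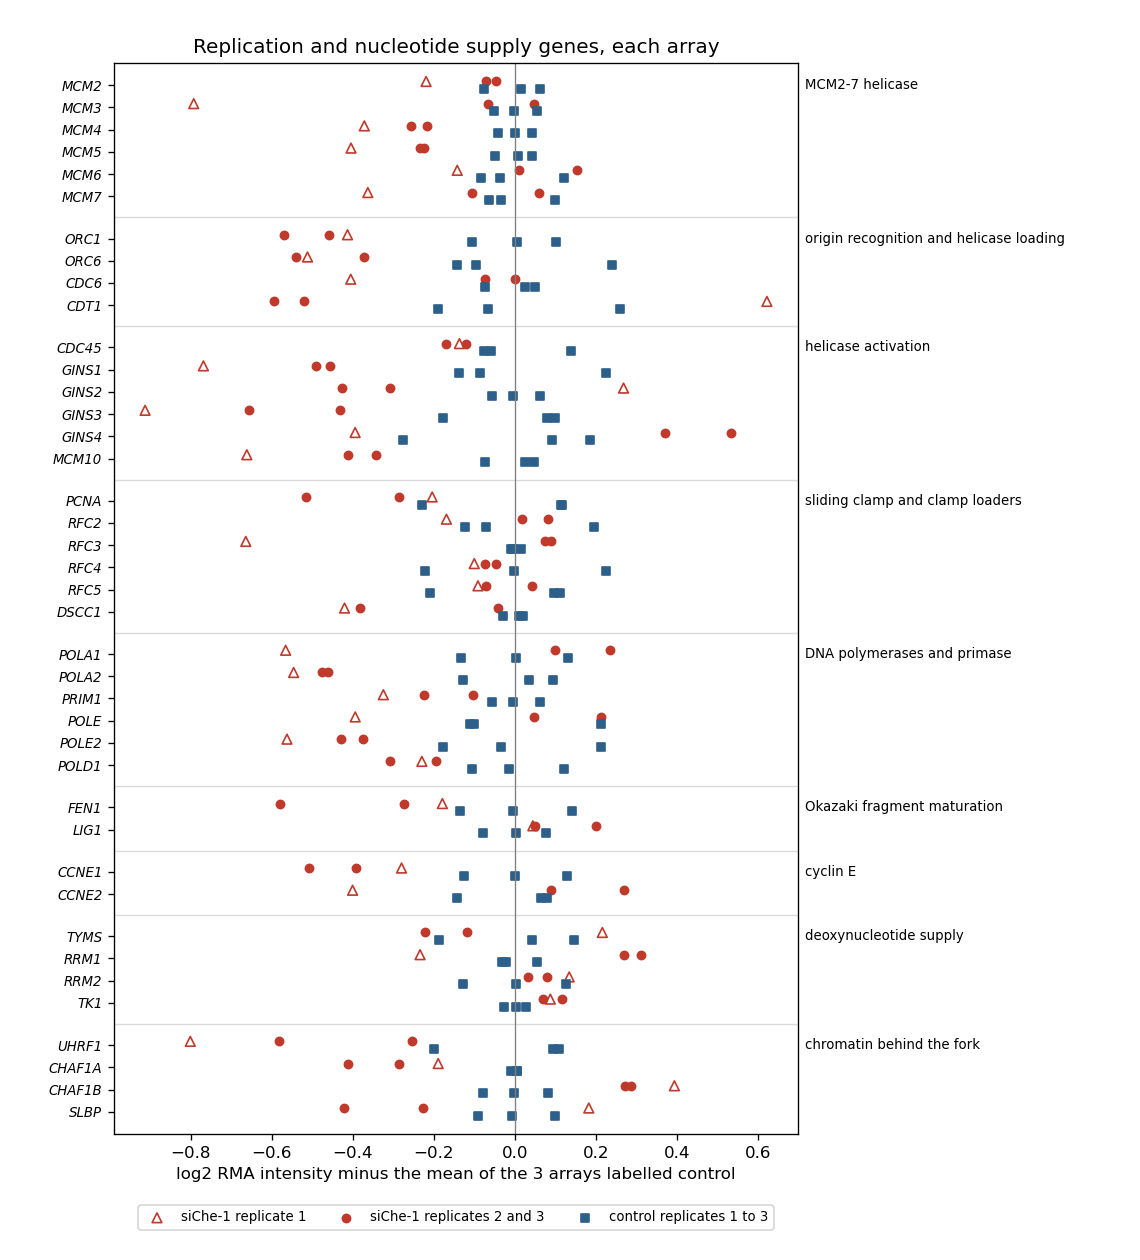
Each row is 1 of the 40 members, grouped by role, and the horizontal axis is the log2 RMA intensity of an array minus the mean of the 3 arrays labelled control. Open triangles are siChe-1 replicate 1, filled circles siChe-1 replicates 2 and 3, and squares the control arrays. The triangle lies far from the circles in rows such as CDT1, GINS4, MCM3, RFC3 and POLA1.

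The promoters of the 2 called members are shown because both hold a match to a loosened form of the E2F motif, the sequence through which E2F factors bind many replication genes. The sequences are RefSeq's for assembly GRCh38.p14, from 250 bases before to 10 bases after the annotated start, read 5′ to 3′ on the gene's strand, with motif matches in capitals.
GINS3: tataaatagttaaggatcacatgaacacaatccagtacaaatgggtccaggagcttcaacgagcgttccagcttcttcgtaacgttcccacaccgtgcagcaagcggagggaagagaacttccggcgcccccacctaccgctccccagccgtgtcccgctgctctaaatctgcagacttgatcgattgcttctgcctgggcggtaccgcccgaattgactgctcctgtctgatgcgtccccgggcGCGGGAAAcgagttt
POLA2: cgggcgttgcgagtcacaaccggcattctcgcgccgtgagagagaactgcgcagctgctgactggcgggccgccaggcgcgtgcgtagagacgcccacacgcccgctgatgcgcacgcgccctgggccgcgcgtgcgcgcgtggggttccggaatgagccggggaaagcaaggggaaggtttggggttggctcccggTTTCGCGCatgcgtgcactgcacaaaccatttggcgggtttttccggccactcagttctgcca
The GINS3 stretch is chr16:58392221-58392480 and the POLA2 stretch is chr11:65261712-65261971, both on the + strand. The search used the 8 letters TTTNNCGC on both strands, in a window of 250 bases before to 50 after the start, and matches may overlap. These letters take in the E2F consensus and other sequences. Counted from the annotated start, the match begins at position -5 in GINS3, on the opposite strand, and at -53 in POLA2. Promoters of 35 members were matched in the RefSeq table, and 20 of them (57.1%) held the motif, against 6.9% of 27305 promoters. The CCAAT box, searched as CCAAT on both strands, was held by 54.3% of the members' promoters and 35.7% of all promoters. Of 54 promoters of the further replication genes described below, 12 (22.2%) held the motif and 51.9% the CCAAT box. The median difference was -0.16 for the 20 members with a match and -0.16 for the 15 without. Stretches of 30 bases around 1 match each are given for 6 further members, picked from those with a match. They are examples and do not cover every role.
MCM6: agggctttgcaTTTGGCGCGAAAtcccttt
ORC6: ttgatgcgcatGCGCAAAAggaagaccctg
CDT1: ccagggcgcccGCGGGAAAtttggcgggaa
PCNA: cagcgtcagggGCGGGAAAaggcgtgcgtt
POLE2: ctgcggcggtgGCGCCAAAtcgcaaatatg
UHRF1: gccgagttttcGCGGGAAAaaaatcagagc
They lie at chr2:135876577-135876606 (- strand), chr16:46689525-46689554 (+), chr16:88803743-88803772 (+), chr20:5126663-5126692 (-), chr14:49688201-49688230 (-) and chr19:4909476-4909505 (+). In MCM6 the capitals cover a pair of overlapping matches, 1 on each strand. ORC1, CCNE1, RRM1, RRM2, TK1, CHAF1A, CHAF1B and SLBP, described below, were among the 15 with no match in the window. Near matches that miss a letter of the motif, such as those in the ORC1, CHAF1A and CHAF1B promoters, were not counted in members or in all promoters. A match is a run of letters, not a measured site.

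In the MCM2 to MCM7 helicase, the ring that unwinds DNA, no subunit was called, although 2 of 6 were lower at an unadjusted p under 0.05 in limma. The median difference was -0.20, and 5 of 6 subunits were below 0. MCM5 read 9.48, 9.66 and 9.65 in the arrays labelled siChe-1, against 9.83, 9.92 and 9.89 in those labelled control. The groups did not overlap, and the difference was -0.29 ± 0.12 (SE, limma adjusted p = 0.227). MCM4 had the same pattern, at 8.63 ± 0.08 in siChe-1 arrays against 8.91 ± 0.04 in control arrays (SD, n = 3 each, limma adjusted p = 0.227). MCM2, MCM6 and MCM7 differed by between -0.14 and 0.01, with overlapping groups, and by -0.058, 0.081 and -0.023 without siChe-1 replicate 1. MCM3 read 8.21, 9.04 and 8.93 in the arrays labelled siChe-1, against 8.996, 9.05 and 8.95 in those labelled control. Its low mean came from siChe-1 replicate 1, and its difference was -0.27 with that array and -0.01 without it. Without the array the median of the 6 subunits was -0.04.

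Of the genes that recognise origins and load the helicase, none was called with all 6 arrays in limma, where 2 of 4 were lower at an unadjusted p under 0.05. ORC1, the large subunit of the origin recognition complex, read 7.45, 7.41 and 7.29 in the arrays labelled siChe-1, against 7.97, 7.87 and 7.76 in those labelled control. All siChe-1 values lay below all control values, and the difference was -0.48 ± 0.12 (SE, limma adjusted p = 0.0555). Without siChe-1 replicate 1 it was -0.51, and the call was made (limma adjusted p = 0.0231). ORC6, another subunit of that complex, averaged 7.55 ± 0.09 in siChe-1 arrays against 8.02 ± 0.21 in control arrays (SD, n = 3 each, limma adjusted p = 0.0898). CDC6, the ATPase that works with the complex, differed by -0.16 with overlapping groups, and by -0.04 without siChe-1 replicate 1. CDT1, which brings the helicase to the origin, read 9.004, 7.86 and 7.79 in the arrays labelled siChe-1, against 8.64, 8.19 and 8.32 in those labelled control. Its siChe-1 replicate 1 was the highest of all 6 arrays and the other 2 were the lowest. The difference was -0.17 ± 0.28 with all arrays (SE, limma adjusted p = 0.822) and -0.56 ± 0.14 without replicate 1 (limma adjusted p = 0.0382).

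The helicase-activating genes held the 2 largest differences among the 40 members, those of GINS3 and GINS1. GINS3 read 6.96, 7.44 and 7.22 in the arrays labelled siChe-1, against 7.70, 7.97 and 7.95 in those labelled control. The groups did not overlap, and the difference was -0.67 ± 0.15 (SE, limma adjusted p = 0.0387). GINS1 averaged 7.51 ± 0.17 in siChe-1 arrays against 8.09 ± 0.20 in control arrays (SD, n = 3 each), a difference of -0.57 that did not pass (limma adjusted p = 0.0594). The other subunits of the same 4-member complex did not share that pattern across the arrays. GINS2 read 8.09, 7.40 and 7.52 in the arrays labelled siChe-1, against 7.82, 7.77 and 7.89 in those labelled control. GINS4 read 6.20, 7.13 and 6.96 in the arrays labelled siChe-1, against 6.32, 6.69 and 6.78 in those labelled control. In both, siChe-1 replicate 1 lay on the opposite side of the control values from replicates 2 and 3. Without it GINS2 differed by -0.37 (limma adjusted p = 0.0684) and GINS4 by 0.45 (limma adjusted p = 0.0924), and neither passed. MCM10, which helps start the active helicase, averaged 8.11 ± 0.17 in siChe-1 arrays against 8.58 ± 0.06 in control arrays (SD, n = 3 each, limma adjusted p = 0.0731). CDC45 differed by -0.14 ± 0.12 (SE), although its groups did not overlap. Whether the GINS subunits differed from each other in their response was not tested. The GINS3 call was lost without siChe-1 replicate 3 (limma adjusted p = 0.106) and without control replicate 1, 2 or 3 (0.082, 0.172 and 0.157).

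**Figure D3:**
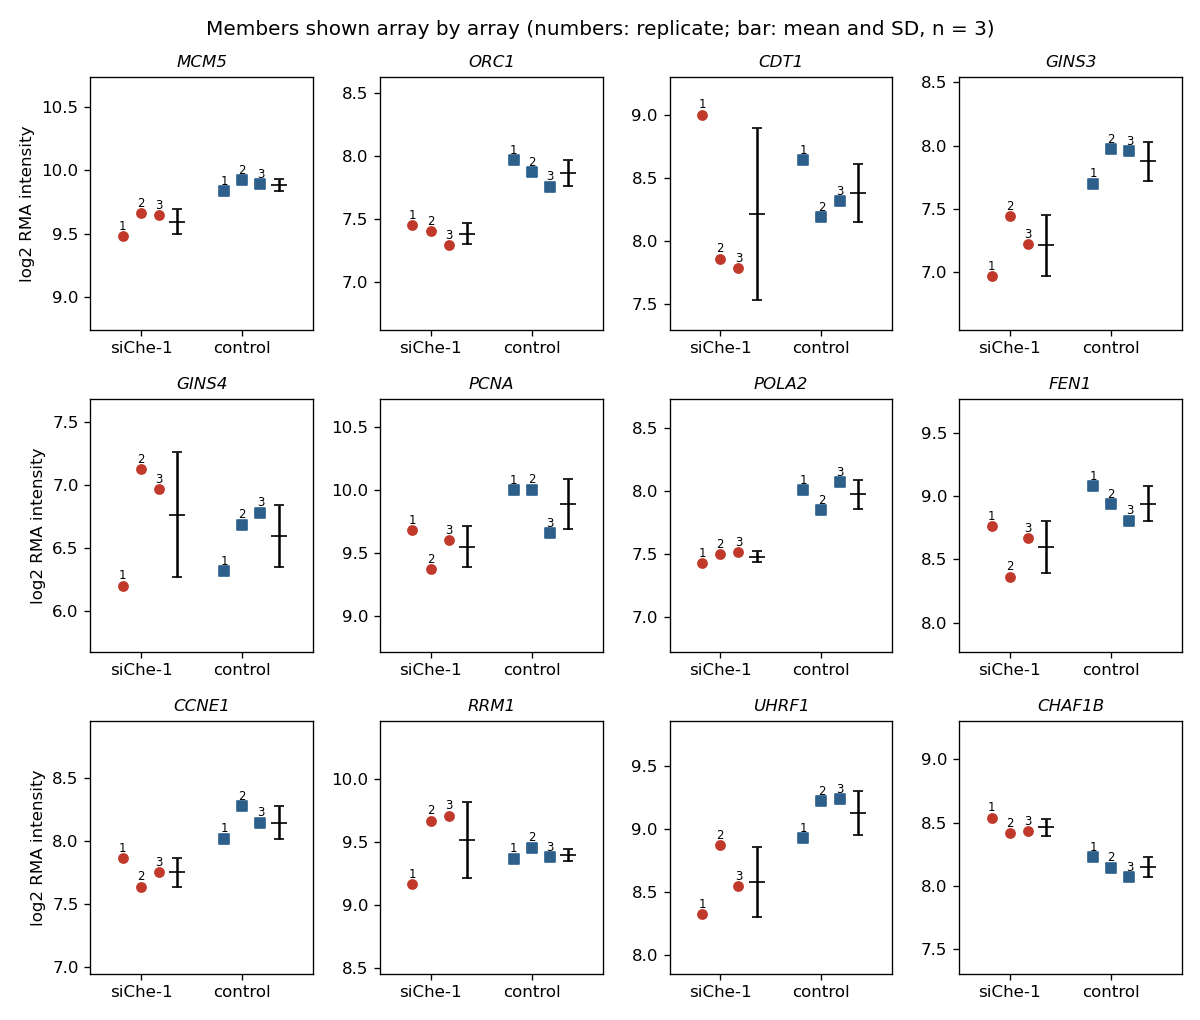
Each panel is 1 gene, with its log2 RMA intensity on the vertical axis (each panel spans the same 2 log2 units), the arrays labelled siChe-1 on the left and those labelled control on the right, replicate numbers above the points, and the mean and SD (n = 3) beside them. The groups are separate for MCM5, ORC1, GINS3, POLA2, FEN1, CCNE1, UHRF1 and CHAF1B, and siChe-1 replicate 1 lies away from its group in CDT1, GINS4 and RRM1. GINS4 and CHAF1B were added after their values were seen.

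No gene of the clamp and its loaders was called. PCNA, the sliding clamp that holds polymerases on DNA, read 9.68, 9.37 and 9.60 in the arrays labelled siChe-1, against 10.0, 10.0 and 9.66 in those labelled control. Values of siChe-1 replicates 2 and 3 lay below every control value and that of replicate 1 just above the lowest, and the difference was -0.34 ± 0.14 (SE, limma adjusted p = 0.253). The RFC subunits among the members, RFC2, RFC3, RFC4 and RFC5, which open the clamp, differed by between -0.17 and -0.02, with overlapping groups in each. Without siChe-1 replicate 1 they differed by between -0.06 and 0.08. RFC1, the large subunit, is not a member but is on the further list described below. It differed by -0.44 with groups that did not overlap (limma adjusted p = 0.2), and by -0.24 without siChe-1 replicate 1. RFC3 read 8.55 in siChe-1 replicate 1 and 9.28 and 9.30 in the other siChe-1 arrays, against 9.20, 9.22 and 9.20 in those labelled control. DSCC1, part of an alternative clamp loader, differed by -0.28 (limma adjusted p = 0.308). In limma 1 of the 6 members of this role, PCNA, was lower at an unadjusted p under 0.05.

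Among the 6 polymerase and primase genes POLA2 alone was called, with 2 lower at an unadjusted p under 0.05. It read 7.43, 7.50 and 7.52 in the arrays labelled siChe-1, against 8.01, 7.85 and 8.07 in those labelled control. The groups were well separated, and the difference was -0.49 ± 0.12 (SE, limma adjusted p = 0.0487). POLA1, the catalytic subunit of the same polymerase, read 7.81, 8.61 and 8.47 in the arrays labelled siChe-1, against 8.24, 8.51 and 8.38 in those labelled control. Its groups overlapped, and it differed by -0.08 with all arrays and 0.17 without siChe-1 replicate 1. PRIM1, the catalytic subunit of primase, differed by -0.22 (limma adjusted p = 0.385). POLE2, the second subunit of polymerase epsilon, averaged 6.28 ± 0.10 in siChe-1 arrays against 6.73 ± 0.20 in control arrays (SD, n = 3 each, limma adjusted p = 0.0984), whereas its catalytic partner POLE differed by -0.05 ± 0.17 (SE), and by 0.13 without siChe-1 replicate 1. POLD1, the catalytic subunit of polymerase delta, differed by -0.24 (limma adjusted p = 0.32). The POLA2 call lay close to the threshold. It was lost without siChe-1 replicate 2 or 3 (limma adjusted p = 0.103 and 0.127), without control replicate 1, 2 or 3 (0.186, 0.0969 and 0.174), with a repeated quantile normalization (0.0867) and with an intensity trend in the prior (0.0597).

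Of the 2 genes of Okazaki fragment maturation and the 2 of cyclin E, 1 in each pair had groups that did not overlap. FEN1, the flap nuclease, read 8.76, 8.36 and 8.67 in the arrays labelled siChe-1, against 9.08, 8.94 and 8.81 in those labelled control, a difference of -0.34 ± 0.14 (SE, limma adjusted p = 0.237). LIG1, the ligase that seals the nick, differed by 0.10 ± 0.12 (SE). CCNE1, which activates CDK2 at the entry to S phase, read 7.87, 7.64 and 7.75 in the arrays labelled siChe-1, against 8.02, 8.27 and 8.15 in those labelled control. Its groups did not overlap. The difference was -0.39 ± 0.12 with all arrays (SE, limma adjusted p = 0.121) and -0.45 without siChe-1 replicate 1, where it passed (limma adjusted p = 0.0438). Its paralogue CCNE2 differed by -0.01 ± 0.17 (SE), with siChe-1 replicate 1 at 6.16 and the other siChe-1 arrays at 6.65 and 6.83, against 6.63, 6.64 and 6.42 in control arrays. Without that replicate it differed by 0.18. By limma 0 of these 4 were called with all arrays, and FEN1 and CCNE1 reached an unadjusted p under 0.05.

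The 4 genes of deoxynucleotide supply had differences near 0. By limma 0 of 4 were called, and 0 of 4 reached an unadjusted p under 0.05. The 95% confidence intervals of all 4 lay within a 1.5-fold change in either direction. That bound was met by 25 of the 40 members and by 13090 of all 18417 genes. RRM1, the large subunit of ribonucleotide reductase, read 9.16, 9.67 and 9.71 in the arrays labelled siChe-1, against 9.37, 9.45 and 9.38 in those labelled control. Again siChe-1 replicate 1 lay below and the other 2 above the control values, and the difference was 0.11 with all arrays and 0.29 without replicate 1 (limma adjusted p = 0.13). RRM2, its small subunit, differed by 0.08 ± 0.12 (SE), and TYMS, which makes thymidylate, by -0.04 ± 0.15 (SE), which was -0.17 without siChe-1 replicate 1. TK1, the salvage kinase for thymidine, read 10.34, 10.32 and 10.37 in the arrays labelled siChe-1, against 10.26, 10.28 and 10.23 in those labelled control. Its groups did not overlap, with an SD of 0.02 in siChe-1 arrays and 0.03 in control arrays, and its difference was 0.09, with an interval of -0.15 to 0.33.

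The 4 genes of chromatin behind the fork had differences on both sides of 0. None was called, and 2 were lower and 1 higher at an unadjusted p under 0.05 in limma. UHRF1, which directs maintenance DNA methylation to new strands, read 8.32, 8.87 and 8.54 in the arrays labelled siChe-1, against 8.92, 9.22 and 9.23 in those labelled control. The groups did not overlap, and the difference of -0.55 ± 0.16 did not pass (SE, limma adjusted p = 0.0971). CHAF1A and CHAF1B encode the p150 and p60 subunits of the histone chaperone CAF-1, and they lay on opposite sides of 0. CHAF1A averaged 8.55 ± 0.11 in siChe-1 arrays against 8.84 ± 0.01 in control arrays (SD, n = 3 each, limma adjusted p = 0.213). CHAF1B read 8.54, 8.42 and 8.43 in the arrays labelled siChe-1, against 8.23, 8.14 and 8.07 in those labelled control. It had the largest difference above 0 among the members with all arrays, 0.32 ± 0.11 (SE, limma adjusted p = 0.175). Neither subunit passed, and the difference between their responses was not tested. SLBP, which binds the stem-loop of histone transcripts, differed by -0.16 with overlapping groups, and by -0.32 without siChe-1 replicate 1 (limma adjusted p = 0.127).

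**Figure D4:**
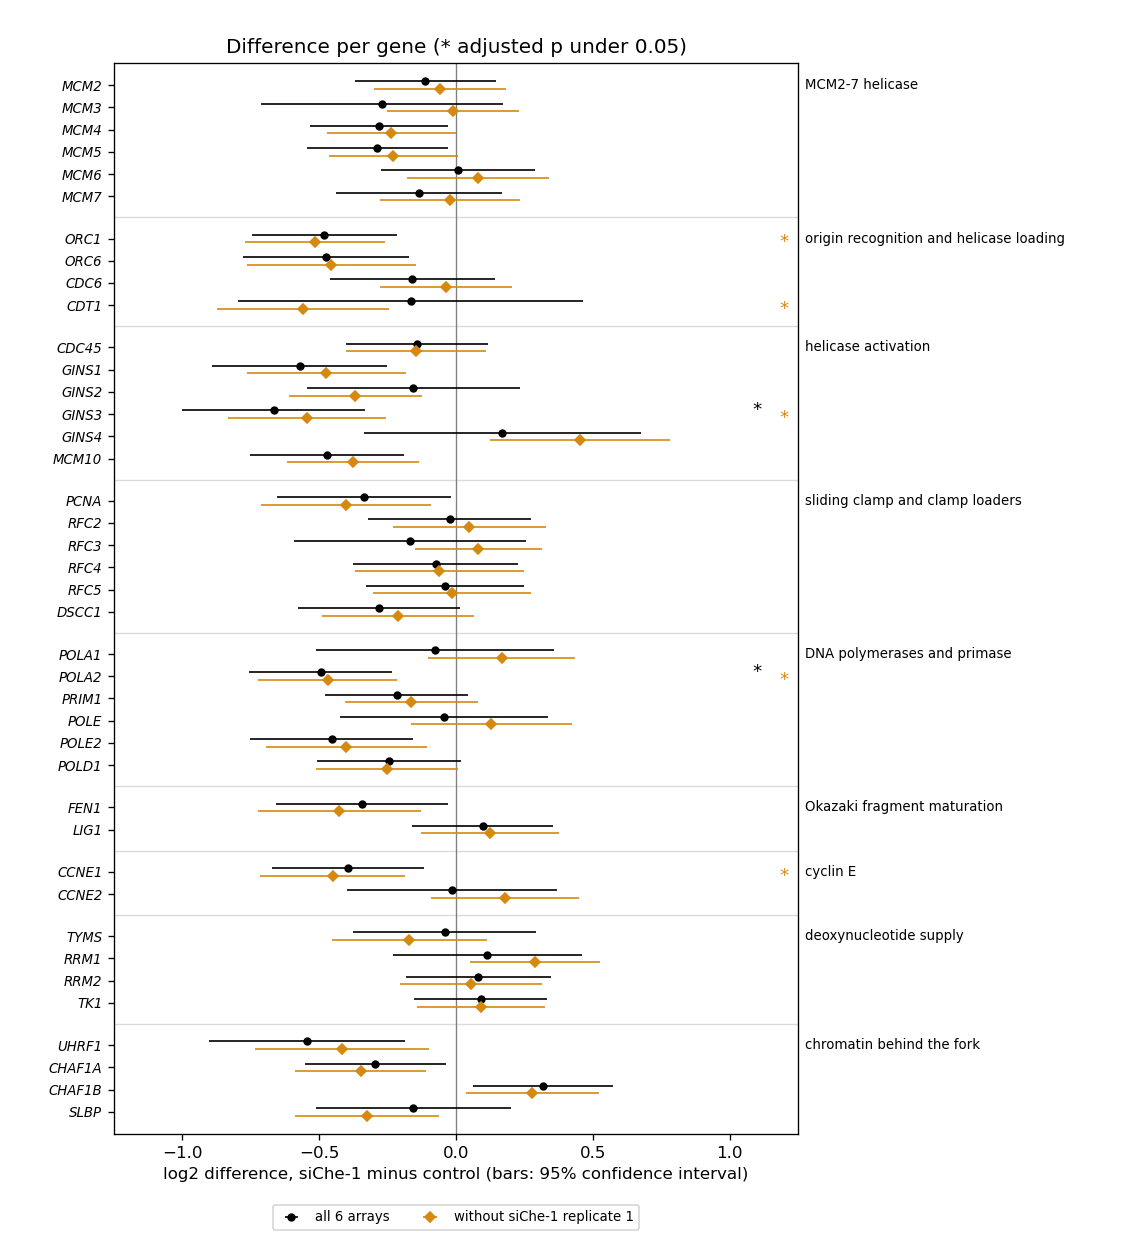
Each row is 1 of the 40 members, grouped by role, and the horizontal axis is the log2 difference, siChe-1 minus control, with its 95% confidence interval. Black circles use all 6 arrays and orange diamonds leave out siChe-1 replicate 1; asterisks in the same colours mark an adjusted p under 0.05. GINS3 and POLA2 carry both asterisks, and ORC1, CDT1 and CCNE1 carry the orange one alone.

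Across roles, 17 members had every siChe-1 value below every control value, where 13.3% of all genes did, and 2 (TK1 and CHAF1B) had every siChe-1 value above, where 10.6% of all genes did. The 17 were spread over 8 of the 9 role groups, deoxynucleotide supply holding none. Median differences by role ran from -0.32 for origin recognition and loading and -0.31 for helicase activation to 0.086 for deoxynucleotide supply. Without siChe-1 replicate 1 the medians were -0.49 for origin recognition and loading, -0.37 for helicase activation and 0.074 for deoxynucleotide supply. The chromatin genes had a median of -0.23 with all arrays and -0.34 without that replicate, and the clamp and its loaders -0.12 and -0.04. These medians are over 2 to 6 genes and describe the arrays.

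The rest of the pathway was read from a list of 68 further replication, fork and nucleotide genes, 65 of which had a named probe set. By limma 2 of the 65 were called lower (3.08%) and 0 higher, where 2.52% and 1.19% of all genes were. At an unadjusted p under 0.05, 13 were lower and 1 higher, where 9.77% and 7.88% of all genes were. The median difference was -0.10, with 48 of 65 below 0, against 49.1% of all genes. Without siChe-1 replicate 1 it was -0.05 with 38 below 0, against 51.1% of all genes. With a repeated quantile normalization it was -0.03 with 36 below 0, against 8551 of all 18417 genes. CDC25A, the phosphatase that removes inhibitory phosphate from CDK2, read 6.73, 6.59 and 6.63 in the arrays labelled siChe-1, against 7.75, 7.32 and 7.41 in those labelled control. That was a difference of -0.84 ± 0.14 (SE, limma adjusted p = 0.0087). SAMHD1, which breaks down deoxynucleotides and is also an interferon-inducible antiviral factor, read 7.45, 8.07 and 7.89 in the arrays labelled siChe-1, against 8.60, 8.80 and 9.03 in those labelled control. Its difference was -1.01 ± 0.18 (SE, limma adjusted p = 0.0121), and the call was lost without control replicate 2 or 3 (limma adjusted p = 0.0707 and 0.0789). Both genes had groups that did not overlap. Of the 5 E2F factors on the list none was called by limma, with 1 lower and 1 higher at an unadjusted p under 0.05. E2F1 differed by 0.35 (limma adjusted p = 0.279), which was 0.20 without siChe-1 replicate 1, and E2F2 by -0.31 (limma adjusted p = 0.267), both named after their values were seen. Without siChe-1 replicate 1 the topoisomerase gene TOP2B was the 1 called higher (0.72, limma adjusted p = 0.0044), where 4.01% of all genes were. CDC25A and SAMHD1 were the 2 called lower in that fit (3.08%), where 4.48% of all genes were.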

How the data were processed

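Transcripts of HCT116 cells were measured on 6 single-colour Affymetrix whole-transcript arrays, each labelled from 6 micrograms of total RNA, per the labels. The deposited log2 intensities came from RMA, which the authors ran in Affymetrix Expression Console; the submitters' processing notes name both, and their version and settings are not given in the sources used here. No detection calls are included, and normalization between arrays hides any change in total RNA per cell. Of 33297 probe sets, 19460 had 1 gene symbol, 1754 several and 12083 none listed; 0 columns held other samples. Groups were compared as siChe-1 minus control over 18417 genes with limma 3.58.1 (R 4.3.3), using lmFit and eBayes without covariates or a filter. In data simulated for this comparison over 18417 genes, the test recovered 14% of log2 changes of 0.5, 75% of 1 and 98% of 2. Of the simulated calls 2.24% were false. The changes were placed in a few randomly picked genes of any brightness, with normally distributed noise. Recovery among these members may differ, and changes of the size seen here may be missed. The 40 members and the pathway and marker lists were chosen with earlier results of these data known, so no list was tested. All members are named, with array values for those called with all arrays or without siChe-1 replicate 1 and for the largest difference of each role. Pathway genes were named if called. MCM3, GINS2, GINS4, RFC3, POLA1, CCNE2 and TK1, and CHAF1B among the chromatin genes, were given array by array after their values were seen. The pathway genes RFC1, TOP2B, E2F1 and E2F2, not called with all arrays, were named after theirs.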

Additional observations from a re-analysis of the deposited data

How the results depend on the processing

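Among 13 other fits of the data, the number of members called lower was 1 with a repeated quantile normalization, 4 with each array centred on its median, 4 without the dimmest 40% of genes, 1 with an intensity trend and robust prior, and 11 with array weights. Leaving out 1 array gave between 0 and 5 members lower. At an adjusted p under 0.01, under 0.1, or under 0.05 with at least 1.5-fold, it was 0, 8 and 1. The share over all genes was not counted at these thresholds. The labels number replicates 1 to 3 in both groups, but the deviations of same-numbered arrays correlated at 0.23, 0.064 and -0.045, and not every array correlated best with its own number, so the numbers were not taken as pairs, and with the replicate block 5 members were lower (3.96% of all genes). No alternative gave a member called higher. The median over the members was -0.086 with the repeated quantile normalization, and between -0.17 and -0.23 with 1 array left out. Pathway genes called lower numbered 7 with array weights (10.8%), where 8.24% of all genes were, and 1 at an adjusted p under 0.01. With 1 array left out they numbered 1 to 2, where 1.08% to 4.48% of all genes were. Those called higher numbered 1 with array weights, where 1348 of all 18417 genes were. With 1 array left out they numbered 0 to 1, where 63 to 739 of all genes were. AATF stayed higher and called in all 13 fits.

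Of the 40 members, CDC25A and SAMHD1, no difference called with all 6 arrays turned its sign under the 13 fits. Some differences not called with all arrays did, CDT1, RFC3 and GINS4 among them. With the repeated quantile normalization they were RFC2 (0.062), RFC4 (0.015), RFC5 (0.050), POLA1 (0.0070), POLE (0.050), CCNE2 (0.022) and TYMS (0.0065), with median centring MCM6 (-0.032), and with array weights RFC2 (0.068), RFC3 (0.050), POLA1 (0.11), POLE (0.079) and CCNE2 (0.19). With 1 array left out the ranges that crossed 0 were -0.067 to 0.081 for MCM6, -0.56 to 0.050 for CDT1, -0.012 to 0.45 for GINS4, -0.085 to 0.074 for RFC2, -0.29 to 0.082 for RFC3, -0.18 to 0.038 for RFC4, -0.14 to 0.016 for RFC5, -0.23 to 0.17 for POLA1, -0.17 to 0.13 for POLE, -0.16 to 0.18 for CCNE2 and -0.17 to 0.048 for TYMS. The cause of these shifts was not tested. With 3 arrays a group, most simulated differences of 0.5 were not recovered, so differences of that size may be missed here.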

Other observations

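Array deviations were set against the genomic span of each gene in RefSeq, as Spearman's rho of the deviation of an array from the mean of the other 2 of its group. Over the 40 members it was -0.36, 0.42 and 0.12 for siChe-1 replicates 1, 2 and 3, and -0.25, -0.04 and 0.27 for control replicates 1, 2 and 3. Over 18392 genes it was -0.29, 0.28 and 0.16 for siChe-1 replicates 1, 2 and 3, and -0.07, -0.02 and 0.08 for control replicates 1, 2 and 3. Within a group the 3 deviations sum to 0, so they are not independent, and genes on an array share its labelling and normalization. Their part in the member differences was not tested.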
